A study of Homo sapiens with 4 samples.

Results

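The carcinoembryonic antigen-related cell adhesion molecules (CEACAMs) were examined in A549 cells, a human lung adenocarcinoma line, with and without overexpression of the deubiquitinase USP12. The members were 5 of the 50868 genes counted, CEACAM1, CEACAM5, CEACAM6, CEACAM7 and CEACAM19, found by their gene names. They were picked with the counts of these libraries already known, so the differences between groups are given for them as a description and without a test. RNA was sequenced in 4 libraries, 2 labelled control and 2 labelled USP12-overexpressed, and all came from the same cell line. The study's methods describe lentiviral pLVX vectors carrying tagged human USP12. Its figure legends name a vector control for the A549 cells, whereas the sample titles say CON and name no vector. Whether the lines were pools or clones, and whether the replicates were separate cultures, is not given in the sources used here, so that all spreads and p-values measure only the variation between these libraries.

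CEACAM proteins carry immunoglobulin-like domains outside the cell, and the outermost of these binds other CEACAM molecules on neighbouring cells. CEACAM5, CEACAM6 and CEACAM7 are held in the membrane by a glycosylphosphatidylinositol (GPI) anchor, whereas CEACAM1 and CEACAM19 span the membrane. CEACAM5 is the carcinoembryonic antigen measured in serum as a tumour marker, and CEACAM6 is a related antigen that is abundant in many lung adenocarcinomas. The long form of CEACAM1 carries inhibitory tyrosine motifs in its cytoplasmic tail, which recruit the phosphatases SHP-1 and SHP-2. CEACAM7 is best known from colonic epithelium, and CEACAM19 is among the less studied members.

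The library totals were between 14280081 and 16305356 counts, and a level of 3 counts was taken as the floor, which corresponds to 0.166 to 0.227 CPM (counts relative to library size, with edgeR's TMM factors). This floor covers counting error only. The overexpressed gene, USP12, had 15.2 and 34.4 CPM in control cells against 1745 and 2235 with USP12, the direction that the labels give. The SD of the log2 ratio over 15222 genes was 1.32 for the control pair and 0.62 for the USP12 pair. Against USP12 replicates 1 and 2 this SD was 1.28 and 1.31 for control replicate 1, and 1.10 and 1.01 for control replicate 2. Control replicate 1 thus stood apart from the other 3 libraries. By this measure the spread within the control group exceeded that between control replicate 2 and either USP12 library. The heading of the count column of control replicate 1 begins with another number than the other 3. Control replicate 1 also had the fewest genes with a count, 18597, against 20116 to 20518 in the other libraries. All 5 epithelial markers were above the floor, with summed levels of 9638 and 5060 CPM in control cells against 4275 and 3976 with USP12. Of the 8 enzymes typical of A549 cells, such as AKR1B10, ALDH1A1 and NQO1, all were above the floor, with summed levels of 11306 to 13367 CPM. Of the 5 alveolar type II markers, 2 were above the floor, SFTPB was at 0 in each library and SFTPC had at most 1 count, and the sums ran from 76.3 to 116 CPM. In bulk RNA, fewer cells with a transcript and less transcript per cell cannot be told apart.

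All members lie on the long arm of chromosome 19 (GRCh38, positions from GENCODE release 44). CEACAM7 (41673303 to 41706976, minus strand), CEACAM5 (41708585 to 41730433, plus strand) and CEACAM6 (41750977 to 41772211, plus strand) follow each other, with gaps of 1.61 kb and 20.5 kb. CEACAM1 (42507304 to 42561234, minus strand) begins 735 kb further on, and CEACAM19 (44662278 to 44684359, plus strand) lies another 2101 kb away. The 250 bases before the annotated start of 4 members are shown to let their sequences be compared, and CEACAM19 is not among them. They were taken from RefSeq (build GRCh38.p14), whose starts lie inside the longer GENCODE genes, so that the windows of CEACAM1, CEACAM6 and CEACAM7 lie there whole and that of CEACAM5 in part. Capitals mark the runs of at least 6 aligned bases that are identical in all 4.
CEACAM7 (chr19:41688271-41688520, minus strand): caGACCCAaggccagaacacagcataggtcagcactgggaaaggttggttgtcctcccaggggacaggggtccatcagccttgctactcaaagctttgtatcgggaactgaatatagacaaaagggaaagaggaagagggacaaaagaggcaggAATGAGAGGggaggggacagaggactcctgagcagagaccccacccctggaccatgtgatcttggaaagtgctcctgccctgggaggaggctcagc
CEACAM5 (chr19:41708376-41708625, plus strand): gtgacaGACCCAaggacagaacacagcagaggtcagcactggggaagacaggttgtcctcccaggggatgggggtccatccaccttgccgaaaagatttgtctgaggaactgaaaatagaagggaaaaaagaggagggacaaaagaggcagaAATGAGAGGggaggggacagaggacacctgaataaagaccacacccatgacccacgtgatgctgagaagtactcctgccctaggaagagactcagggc
CEACAM6 (chr19:41755280-41755529, plus strand): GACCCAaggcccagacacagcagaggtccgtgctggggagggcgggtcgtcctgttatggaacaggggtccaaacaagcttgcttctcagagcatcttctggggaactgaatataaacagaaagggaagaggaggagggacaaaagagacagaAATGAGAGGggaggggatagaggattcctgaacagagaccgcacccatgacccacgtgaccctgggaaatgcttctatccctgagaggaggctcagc
CEACAM1 (chr19:42528482-42528731, minus strand): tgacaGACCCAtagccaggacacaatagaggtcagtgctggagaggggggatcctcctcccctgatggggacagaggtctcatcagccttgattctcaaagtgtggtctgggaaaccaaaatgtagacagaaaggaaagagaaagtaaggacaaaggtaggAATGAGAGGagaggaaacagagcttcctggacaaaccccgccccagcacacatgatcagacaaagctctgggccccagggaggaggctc

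These windows are related to each other. CEACAM5 and CEACAM7 were identical at 84.4% of 244 aligned bases, CEACAM6 and CEACAM7 at 80.2% of 248, and CEACAM5 and CEACAM6 at 78.1% of 242. CEACAM1 was further from the others, with 66.0% to 71.8% identity. Of the 263 alignment columns, 126 were identical in all 4. The E-box CACGTG, the letters bound by the factors USF1 and USF2, begins 46 bases before the start of CEACAM5 and 45 bases before that of CEACAM6, and these letters are not in the windows of CEACAM7 and CEACAM1. They occur in 6.34% of 35116 annotated windows of the same length. The GC box GGGCGG, searched on both strands, was found in CEACAM6 and CEACAM1 and in 42.6% of all windows. The TATA box letters TATAAA were found in CEACAM6 alone among these, beginning 139 bases before its start, and in 10.7% of all windows. The interferon regulatory factor element was found in CEACAM1 alone and in 3.02% of all windows. The CDX site TTTATG and the AP-1 site TGANTCA were in none of the 4 windows, and in 9.64% and 6.57% of all. Such matches describe the letters and do not show that a factor binds.

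CEACAM6 was the most abundant member by far in the control cells. It had 27523 and 23680 counts in control replicates 1 and 2, and 335 and 359 counts in USP12 replicates 1 and 2. On the CPM scale these are 2083 and 1312 against 24.1 and 24.9. Both USP12 libraries lay far below both control libraries and close to each other. The log2 fold change was -6.11 (standard error 0.44), a level 69.3-fold lower in USP12 cells. The USP12 libraries differed from the control libraries by between -6.42 and -5.71 on the log2 CPM scale over the 4 pairs, whereas the control libraries differed from each other by 0.67 and the USP12 libraries by 0.04. In the control cells CEACAM6 was above 99.7% of the tested genes in level in both libraries, and in the USP12 cells above 60.0% and 60.6%.

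CEACAM5 had 1930 and 695 counts in control cells against 4 and 6 with USP12. In CPM this is 146 and 38.5 against 0.288 and 0.416. Transcripts of the tumour marker were thus still counted in USP12 cells, just above the floor of 3 counts. The exact Poisson 95% intervals of the USP12 counts run from 1.09 to 10.2 and from 2.20 to 13.1, and cover counting error only. The log2 fold change was -8.00 (standard error 0.94). The control libraries themselves differed by 1.92 on the log2 CPM scale, and without control replicate 1 the log2 fold change was -6.74. The smallest difference of the 4 pairs, at -6.14, was larger in size than the difference between the control libraries.

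CEACAM1 had 1680 and 2184 counts in control cells against 441 and 482 with USP12, counted per gene, so that its long form is not told apart from other forms. These counts correspond to 127 and 121 CPM against 31.7 and 33.4 CPM. Of the members it had the closest replicates in log2 CPM among the control libraries, which differed by 0.07, and the USP12 libraries differed by 0.07 as well. The log2 fold change was -1.93 (standard error 0.36), a level 3.81-fold lower. The smallest of the 4 differences between a USP12 and a control library was -1.85 on the log2 CPM scale. CEACAM1 was above 90.1% and 91.4% of tested genes in level in the control libraries, and above 67.1% and 68.0% in the USP12 libraries.

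**Figure D1:**
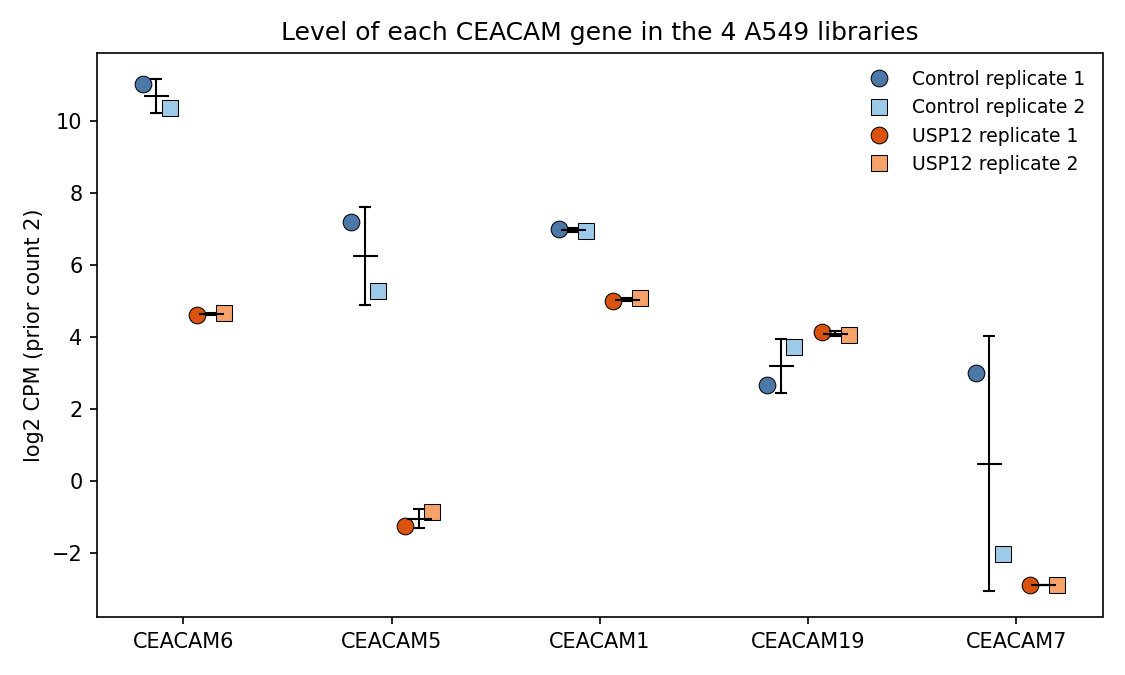
Level of each CEACAM gene in log2 CPM (prior count of 2) in the 4 libraries, with the mean and SD of each group (n = 2) as black marks. CEACAM6, CEACAM5 and CEACAM1 lie lower in both USP12 libraries than in both control libraries, CEACAM19 lies slightly higher, and CEACAM7 stands out only in control replicate 1.

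CEACAM7 was above the floor in control replicate 1 alone. It had 103 counts there, or 7.79 CPM, but 2 counts in control replicate 2 and 0 in each USP12 library. The count of 2 has an exact Poisson 95% interval from 0.242 to 7.22. For a count of 0 this interval runs from 0 to 3.69. The floor of 3 counts is 0.216 and 0.208 CPM in the USP12 libraries. CEACAM7 was below the filter that edgeR sets on low counts, and no fold change was computed. At this depth control replicate 2 and the USP12 libraries could not be told apart for this gene, and the difference rests on 1 library.

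CEACAM19 went the other way. It had 81 and 236 counts in control cells against 242 and 235 with USP12, or 6.13 and 13.1 CPM against 17.4 and 16.3 CPM. Both USP12 libraries were above both control libraries, but control replicate 2 was close to them. The log2 fold change was 0.81 (standard error 0.53), which is less than the difference of 1.08 between the control libraries. Without control replicate 1 it was 0.37, and without control replicate 2 it was 1.49, so that its size depends on which control library is used.

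**Figure D2:**
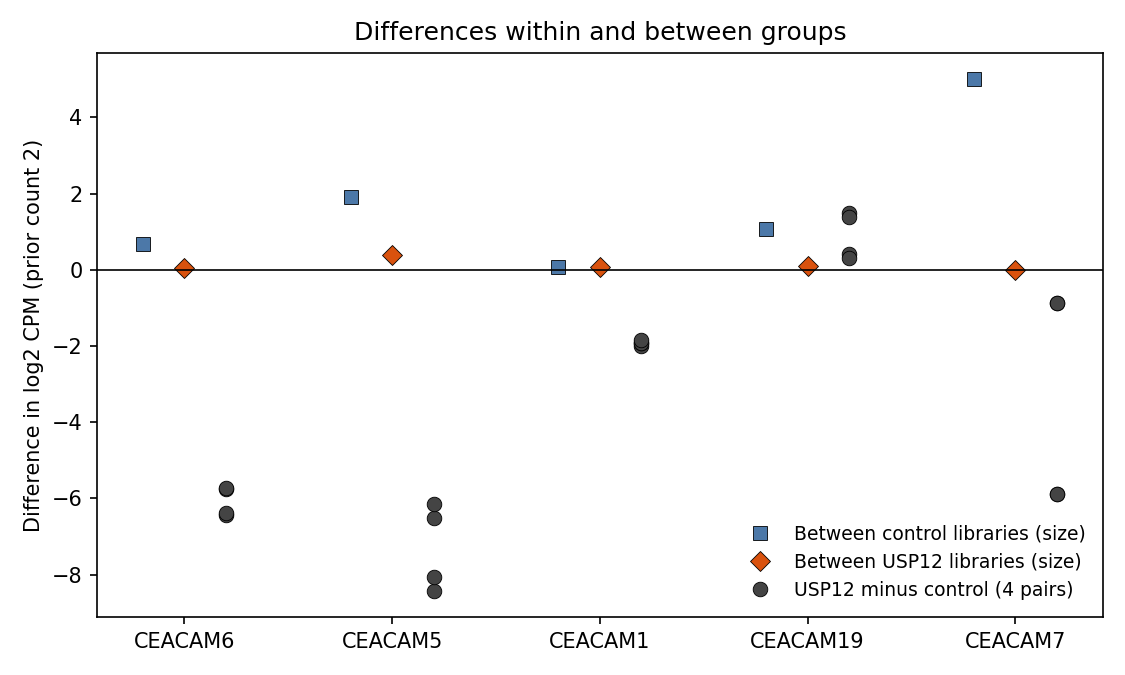
Difference in log2 CPM (prior count of 2) between pairs of libraries for each CEACAM gene, with the size of the difference between replicates as squares and diamonds and the 4 differences of a USP12 from a control library as circles. For CEACAM6, CEACAM5 and CEACAM1 all circles lie further from 0 than the replicates, while for CEACAM19 and CEACAM7 the difference between the control libraries, 1.08 and 5.02, is larger than some of them.

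Of the 5 members, 4 passed the filter on low counts, and in these the groups did not overlap, with 3 lower and 1 higher in USP12 cells by CPM. CEACAM5 passed through its control libraries, and CEACAM19 overlapped between groups by TPM (3.91 and 11.8 against 11.3 and 11.7). Among all 15222 genes that passed, 17.0% were lower without overlap and 19.5% higher without overlap. A log2 fold change of -1 or lower, which CEACAM1, CEACAM5 and CEACAM6 had, was found in 9.99% of the tested genes. The median log2 fold change over all tested genes was -0.06, and 53.6% of them were below 0. When ordered from the lowest log2 fold change, CEACAM5 was at position 17 and CEACAM6 at position 44 of the 15222 genes, with CEACAM1 at 501. Nothing is read from these counts, since the members were chosen from the same comparison.

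Levels per transcript length were compared as TPM, which divides counts by the length of each gene's canonical transcript and scales the sum to the same value in each library. In control cells the order was CEACAM6 at 1073 ± 86.6 TPM (SD, n = 2), CEACAM1 at 60.4 ± 12.7, CEACAM5 at 40.5 ± 26.1, CEACAM19 at 7.86 ± 5.59 and CEACAM7 at 2.36 ± 3.21. CEACAM1 and CEACAM5 did not differ beyond their spread, as CEACAM5 had the higher level in control replicate 1 (58.9 against 51.4 TPM) and CEACAM1 in control replicate 2 (69.3 against 22.0 TPM). CEACAM19 and CEACAM7 changed places in the same way, with CEACAM7 at 4.63 and CEACAM19 at 3.91 TPM in control replicate 1. In USP12 cells CEACAM6 had 14.3 ± 1.35 TPM and CEACAM1 had 14.1 ± 1.53 TPM, which do not differ beyond their spread. CEACAM19 followed with 11.5 ± 0.284 TPM, and CEACAM5 with 0.153 ± 0.0499 TPM. CEACAM6 thus exceeded CEACAM1 22.0-fold and 14.6-fold in the control libraries, and 1.02-fold and 1.00-fold in the USP12 libraries.

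The make-up of the CEACAM transcripts differed accordingly. CEACAM6 accounted for 90.5% and 90.7% of the summed TPM of the 5 genes in the control libraries, and for 35.3% and 36.0% in the USP12 libraries. The share of CEACAM1 was 4.11% and 6.22% in control cells and 34.5% and 35.9% in USP12 cells. CEACAM19 made up 0.312% and 1.06% against 29.9% and 27.6%. In absolute terms the counts of the 5 genes summed to 31317 and 26797 in the control libraries, or 0.219% and 0.164% of all counts, and to 1022 and 1082 in the USP12 libraries, or 0.00708% and 0.00758%. The 3 lower genes were not lower in proportion. The ratio of CEACAM6 to CEACAM5 in TPM was 19.2 and 46.0 in control cells but 113 and 80.8 with USP12, where CEACAM5 rests on 4 and 6 counts.

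**Figure D3:**
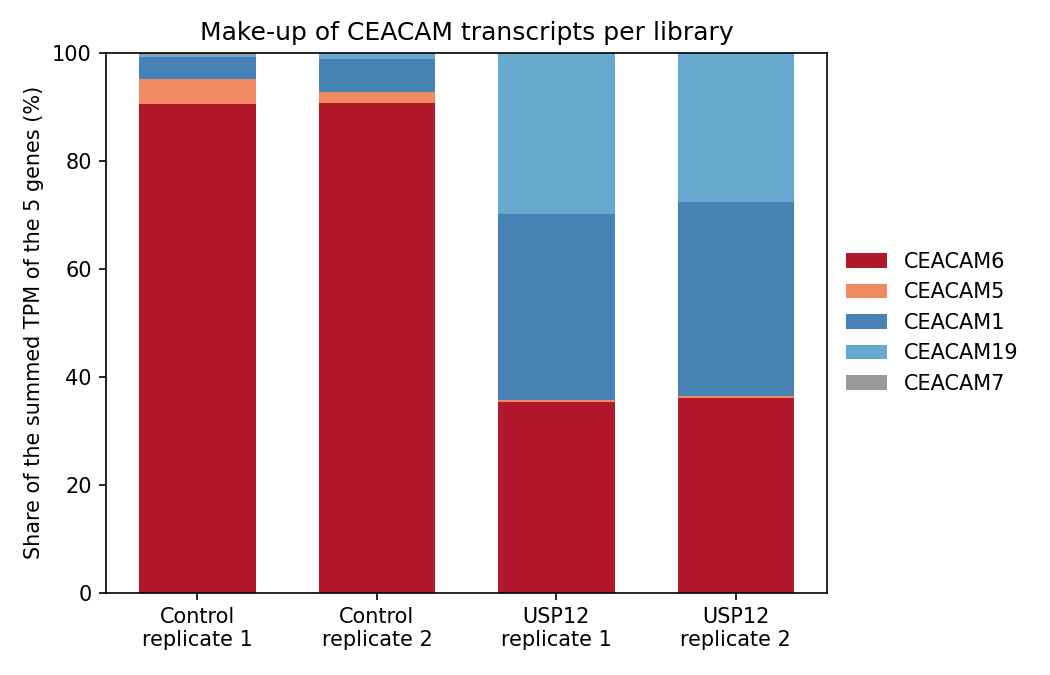
Share of each CEACAM gene in the summed TPM of the 5 genes, in percent, as stacked bars for the 4 libraries. CEACAM6 fills 90.5% and 90.7% of the control bars, while CEACAM6, CEACAM1 and CEACAM19 each hold between 27.6% and 36.0% of the USP12 bars.

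The counts of some members could include fragments of overlapping genes. An annotated protein-coding gene, named AC011513.3 in the files, shares exons with both CEACAM5 and CEACAM6 on the same strand. It had 236 and 10 counts in control cells against 2 and 3 with USP12. With its counts added, CEACAM5 had 2166 and 705 counts against 6 and 9, and CEACAM6 had 27759 and 23690 counts against 337 and 362. The 3′ end of PVR overlaps exons of CEACAM19 on the same strand, and PVR, the poliovirus receptor, had 2281 and 1747 counts in control cells against 1016 and 735 with USP12. With PVR's counts added, CEACAM19 had 2362 and 1983 counts against 1258 and 970. Most of each sum is PVR, which is itself lower with USP12, so the sum cannot show the direction of CEACAM19. How many fragments fall in the shared exons is not known. AC092066.1 also lies over CEACAM19 on the same strand, without shared exons, and had 71 and 121 counts against 155 and 156 (log2 fold change 0.86 ± 0.47 SE, edgeR quasi-likelihood adjusted p = 0.823). LIPE-AS1 lies over CEACAM1 on the opposite strand, with 69 and 16 counts against 17 and 16. Whether the counting used strand is not given in the sources used here. CEACAM genes also resemble each other in sequence, so that fragments may be shared or lost between them in the mapping, and their exact counts are uncertain.

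The rest of the family was nearly silent. Of 19 other CEACAM genes and pseudogenes counted, 1 was above 3 counts in any library, namely CEACAM3, a receptor of granulocytes for bacteria, which lies just beyond CEACAM6. CEACAM3 had 10 and 7 counts in control cells but 0 with USP12, and it was below the filter. Of the 7 granulocyte markers, MPO, FCGR3B and CXCR2 were at 0 in all libraries, and 2 were above the floor in some library, S100A9 with 40 counts in control replicate 1 and 0 elsewhere, and ELANE with 20 and 3 counts in the control and 8 and 1 in the USP12 libraries. The summed level of these markers was 4.54 and 0.222 CPM in control cells against 0.576 and 0.139 with USP12. CEACAM8, another granulocyte member, had at most 1 count. Of the 11 pregnancy-specific glycoprotein genes, the placental branch of the family, 2 were above the floor. PSG1 had 11 counts in control replicate 1 and 6 in USP12 replicate 2, and PSG4 had 8 in USP12 replicate 2.

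The genes around the members were examined because the members share a stretch of chromosome 19. Within 250 kb of any member, 30 other genes were tested. Of these, 3 met the criterion used here, an unadjusted p of 0.05 or less in edgeR's quasi-likelihood test together with a log2 fold change at or below -1, and 0 met it in the other direction. Over all tested genes 4.41% met it as lower and 2.92% as higher. After Benjamini-Hochberg adjustment of edgeR's quasi-likelihood test over the 15222 genes, 0 (0.00%) passed 0.05 in either direction, while 1155 (7.59%) had an unadjusted p under 0.05, edgeR's exact test called 262 lower and 167 higher, and DESeq2 273 and 133. The median log2 fold change of the 30 neighbours was -0.46, against -0.06 over all tested genes.

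Near CEACAM5 and CEACAM6, the neighbours differed far less between groups than these genes. RPS19, a ribosomal protein gene and the nearest tested gene after CEACAM6 at 88.0 kb, had 1210 and 376 CPM in control cells against 655 and 536 with USP12. Its log2 fold change was -0.41 (SE 0.56, edgeR quasi-likelihood adjusted p = 0.954). On the other side of the cluster, the nearest tested gene before CEACAM7 was AC005795.1 at 166 kb, with a log2 fold change of -0.08 (standard error 0.57).

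Beside CEACAM1, the nearest tested gene that does not overlap it was CTB-50E14.5 at 21.6 kb, with a log2 fold change of -0.49 (standard error 0.49). LIPE, which encodes hormone-sensitive lipase, lies 79.9 kb away and met the criterion with 18.4 and 5.71 CPM against 3.38 and 3.26 CPM (log2 fold change -1.85 ± 0.69 SE). Its control libraries differed more from each other than control replicate 2 differed from the USP12 libraries. Around CEACAM19, PVR met the criterion with 173 and 96.8 CPM against 73.1 and 50.9 CPM (log2 fold change -1.12 ± 0.44 SE), and it no longer met it without control replicate 1, when the log2 fold change was -0.64, or without either USP12 library. BCL3, an IκB-like cofactor of NF-κB that lies 63.3 kb after CEACAM19, had a log2 fold change of -0.18 (SE 0.51), and ZNF180, 162 kb before it, one of 0.10 (standard error 0.57).

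**Figure D4:**
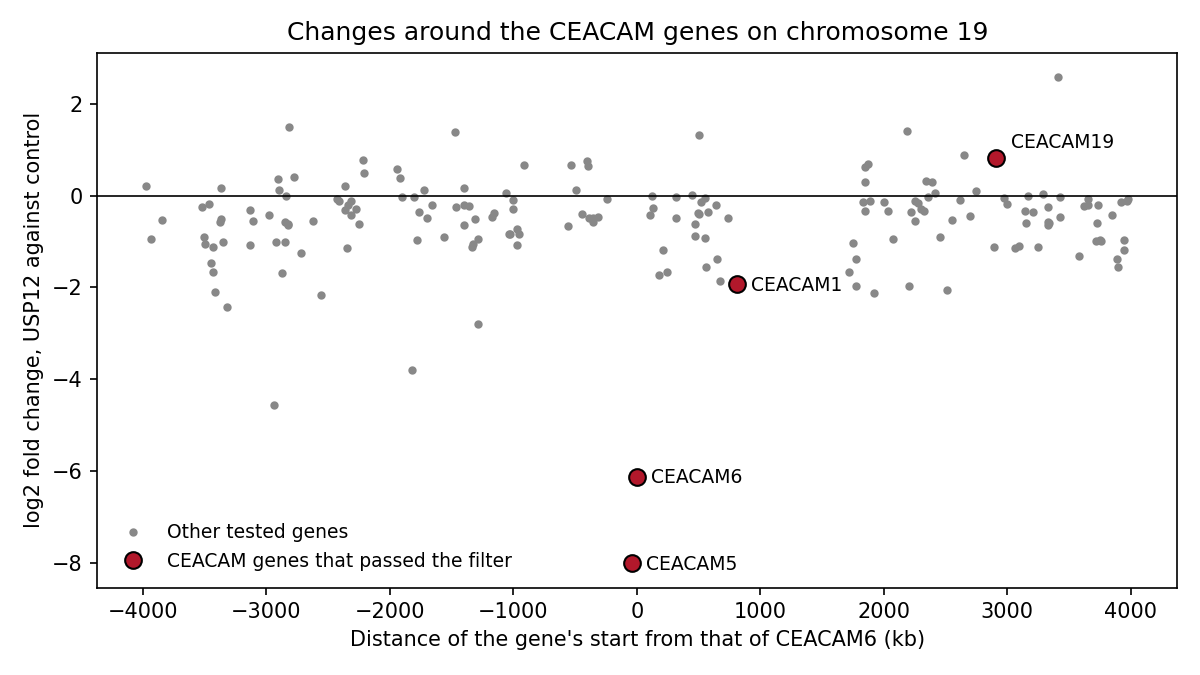
log2 fold change of USP12 against control cells for the tested genes whose start lies within 4000 kb of the CEACAM6 start on chromosome 19, by distance in kb, with the CEACAM genes that passed the filter in red. CEACAM6 and CEACAM5 lie at -6.11 and -8.00, below the 183 other genes, whose values run from -4.55 to 2.57 with a median of -0.41.

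The machinery that attaches the GPI anchor of CEACAM5, CEACAM6 and CEACAM7 was compared next. The gene lists were chosen with earlier results of these data known, so that their counts and p-values serve as a description. Of 27 genes of anchor synthesis and remodelling, 26 were tested, and 0 met the criterion in either direction. Over all tested genes 4.41% met it as lower and 2.92% as higher. The median log2 fold change of the 26 genes was -0.12, within a range from -0.77 to 0.76. PIGT, a subunit of the transamidase that joins the anchor to the protein, had 536 and 314 CPM in control cells against 283 and 243 with USP12 (log2 fold change -0.69 ± 0.39 SE, edgeR quasi-likelihood adjusted p = 0.833). Its further subunits GPAA1, PIGK, PIGS and PIGU had log2 fold changes of -0.49, -0.30, -0.67 and 0.06, with overlapping groups. Without control replicate 2, 2 genes of this list were lower and 3 higher by the criterion, and without control replicate 1, 1 was lower.

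Other GPI-anchored surface proteins were found in both directions, in a list likewise chosen with earlier results of these data known. Of 53 listed genes, 35 were tested, 7 met the criterion as lower and 5 as higher, and the median log2 fold change was -0.63. Over all tested genes the shares were 4.41% lower and 2.92% higher. Of the lower genes, BST2, MSLN, FOLR1 and VNN1 had fewer than 10 counts in each USP12 library. They passed the filter through their control libraries. With at least 10 counts required in every sample, the list held 3 lower and 4 higher genes. CD55, an inhibitor of complement on the cell surface, had 178 and 194 CPM in control cells against 59.7 and 50.3 with USP12 (log2 fold change -1.76 ± 0.35 SE, edgeR quasi-likelihood adjusted p = 0.241). MSLN, the tumour antigen mesothelin, had 12.4 and 7.87 CPM against 0.360 and 0.623 CPM (log2 fold change -4.34 ± 0.68 SE, edgeR quasi-likelihood adjusted p = 0.182). BST2, an interferon-induced tether of viruses, had 112 and 895 counts in control cells against 1 and 0 with USP12. CD24, a mucin-like adhesion molecule, was higher, with 57.4 and 78.7 CPM against 381 and 350 CPM (log2 fold change 2.42 ± 0.37 SE, edgeR quasi-likelihood adjusted p = 0.182). MSLN, BST2 and CD24 met the criterion with any single library left out. CD55 met it when either control library was left out but not when either USP12 library was. The counts of the list became 14 lower and 9 higher without control replicate 2, and 3 higher without USP12 replicate 1.

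Among other adhesion molecules of the immunoglobulin superfamily and epithelial surface, 27 of 33 listed genes were tested, with 2 lower and 2 higher by the criterion and a median log2 fold change of -0.37. The shares over all tested genes were 4.41% lower and 2.92% higher. ICAM1, the ligand of leukocyte integrins, had 228 and 48.3 CPM in control cells against 5.83 and 6.65 with USP12 (log2 fold change -4.46 ± 0.82 SE, edgeR quasi-likelihood adjusted p = 0.210). ESAM, an adhesion molecule of endothelial junctions, had 0.605 and 0.277 CPM against 6.19 and 5.75 CPM (log2 fold change 3.76 ± 0.72 SE), and CADM1, which joins epithelial cells, had 25.7 and 19.5 CPM against 51.6 and 51.5 CPM (log2 fold change 1.19 ± 0.40 SE). ICAM1 and ESAM met the criterion with any single library left out, CADM1 did not without either USP12 library, and of the 4 such fits PVR met it in 1, without control replicate 2. PVR was the other lower gene of the list. ESAM had 8 and 5 counts in control cells and passed the filter through its USP12 libraries. With at least 10 counts required in every sample, 2 genes of the list were lower and 1 higher. The counts became 11 lower and 5 higher without control replicate 2, 1 lower without control replicate 1, and 1 lower and 1 higher without either USP12 library. In EPCAM, the general epithelial marker, the libraries had 376 and 254 counts against 153 and 140.

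The signalling partners of CEACAM1 were compared in the same way. Of 18 listed genes, 16 were tested, 0 met the criterion in either direction, and the median log2 fold change was -0.12. Over all tested genes the shares were 4.41% lower and 2.92% higher, and 0 of 16 is near them. PTPN11, which encodes SHP-2, had 985 and 3747 counts in control cells against 1397 and 1793 with USP12, so that both USP12 libraries lay between the control libraries. SRC, a kinase that phosphorylates the tail of CEACAM1, had a log2 fold change of -0.55 (standard error 0.40). The actin cross-linker FLNA had 0.49 (standard error 0.35), the calmodulin gene CALM3 had -0.44 (standard error 0.49), and ANXA2, an annexin at the membrane, had 0.81 (SE 0.35, edgeR quasi-likelihood adjusted p = 0.682). HAVCR2, which encodes TIM-3, a binding partner of CEACAM1 on T cells, was at 0 in both control libraries and had 4 and 3 counts with USP12. Without control replicate 2, 2 genes of this list were higher by the criterion.

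Of 11 transcription factors tied to CEACAM promoters, 9 were tested, 0 met the criterion in either direction, and the median log2 fold change was 0.26. Over all tested genes the shares were 4.41% lower and 2.92% higher, and 0 of 9 is near them. USF2, whose E-box letters stand in the windows of CEACAM5 and CEACAM6 shown above, had 336 and 172 CPM in control cells against 167 and 145 with USP12 (log2 fold change -0.70 ± 0.43 SE, edgeR quasi-likelihood adjusted p = 0.850). USF1 had a log2 fold change of -0.47 (standard error 0.46). SP1, TFAP2A and SMAD3 had 0.35, 0.26 and 0.49. IRF1, which mediates the interferon response of CEACAM1, had 702 and 745 counts against 358 and 438 (log2 fold change -0.75 ± 0.40 SE, edgeR quasi-likelihood adjusted p = 0.810). The intestinal factor CDX2 had 23 and 15 counts against 3 and 7 (log2 fold change -1.84 ± 0.94 SE, edgeR quasi-likelihood adjusted p = 0.791), while CDX1 was at 0 in each library and NKX2-1 had at most 5 counts. Without control replicate 2, 1 of these factors was lower and 3 were higher by the criterion.

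Markers of intestinal enterocytes, cells in which CEACAM5, CEACAM6 and CEACAM7 are abundant, were compared without a test of the group. Of the 5 listed, 3 were above the floor, with summed levels of 147 and 128 CPM in control cells against 28.1 and 27.4 with USP12, and CDX1 and FABP1 were at 0. CDH17, an intestinal cadherin, had 1636 and 2206 counts in control cells against 383 and 384 with USP12, and VIL1, which encodes villin, had 286 and 85 against 5 and 5. Of the 4 endothelial markers, 2 were above the floor, with summed levels of 15.4 and 8.59 CPM against 0.504 and 1.32 CPM. Of the 5 leukocyte markers, 2 were above the floor, CD3E was at 0, and the sums were 42.9 and 7.15 CPM against 15.0 and 14.2 CPM. Of the 5 fibroblast markers, 3 were above the floor, DCN was at 0, and the sums were 14.9 and 2.94 CPM against 20.2 and 16.2 CPM. The part of these markers in the CEACAM differences was not tested.

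The genes most like each member were sought by the Euclidean distance between log2 CPM profiles over the 4 libraries, after each gene's mean was subtracted. With 4 libraries, this describes the order of genes and carries no test. The nearest to CEACAM6 were CREB3L1, a transcription factor of secretory cells, at a distance of 0.75, then MGAM2 at 0.83 and HK2 at 0.86. CREB3L1 had 291 and 117 CPM in control cells against 1.51 and 2.15 with USP12. HK2, a hexokinase, had 6.96 and 3.49 CPM against 0 in both USP12 libraries, and passed the filter through its control libraries. The log2 fold changes of HK2 and MGAM2, -9.28 and -8.65, were larger in size than that of CEACAM6. The prior count of 2 limits how low the log2 CPM of a gene at or near 0 can fall. Distances to such genes therefore depend on it. The nearest to CEACAM5 were BPIFB1, a secreted protein of airway mucosa, at 0.66, CREB3L1 at 0.83 and MGAM2 at 1.33. BPIFB1 had 111 and 24.1 CPM in control cells against 0.360 and 0.346 with USP12.

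For CEACAM1, the nearest profiles were SGPP2, a sphingosine-1-phosphate phosphatase, at 0.15, TTLL6 at 0.16 and RP11-77H9.2 at 0.22. SGPP2 had 34.7 and 35.0 CPM in control cells against 7.99 and 8.52 with USP12. For CEACAM19 they were LMNB1, which encodes lamin B1, at 0.02, YWHAQ at 0.04 and FAM210A at 0.06. YWHAQ, which encodes a 14-3-3 protein, had 117 and 245 CPM against 318 and 308 CPM, so that like CEACAM19 it was lowest in control replicate 1.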

How the data were processed

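Messenger RNA of A549 cells was measured in 2 control and 2 USP12 libraries made with a stranded kit. Seqtk served the authors for trimming and for removing ribosomal sequence, HISAT2 2.0.4 for mapping to GRCh38 and StringTie 1.3.0 for counting uniquely mapped fragments per gene, and the deposited values are these raw counts, without normalization. The annotation release is not given in the sources used here.

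From the counts, edgeR 4.0.16 under R 4.3.3 gave fold changes for the 15222 genes that passed filterByExpr, with TMM scaling, its quasi-likelihood test (both sides) and adjustment by Benjamini-Hochberg. Standard errors (SE) were derived from each log2 fold change and its F statistic and are approximate. The log2 CPM used a prior count of 2. TPM used the canonical transcript of GENCODE release 44, which held 99.2% of the tested genes by identifier. The 4 upstream windows were aligned with MAFFT 7.526. The cut-offs of p and fold are those the study gave for lower genes, mirrored here for higher ones. The fits were tested on simulated data.

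The members and gene lists were chosen with earlier results of these data known. Named genes were the members, other CEACAM genes above 3 counts, up to 4 called or else the most abundant genes per list, the nearest neighbours, the 3 most similar profiles per member and USP12. PIGK, AC092066.1, PTPN11, HAVCR2, EPCAM, USF1, IRF1, CDX2, CDX1, NKX2-1, LIPE, PSG1, PSG4 and CEACAM8 were named after their values were seen. A neighbouring gene and a marker gene that enter the counts are not reported here by name. Alternatives were DESeq2 1.42.0 (Wald test and size factors), total library size, other filters on low counts, edgeR's exact test, a replicate block, a prior count of 0.5 and leaving out each library.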

Additional observations from a re-analysis of the deposited data

How the results depend on the processing

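CEACAM1, CEACAM5 and CEACAM6 were lower and CEACAM19 higher under all alternatives that gave a value. None of these alternatives added the counts of overlapping genes. The sum of CEACAM19 and PVR was lower with USP12, but most of it is PVR, so it cannot show the direction of CEACAM19. With one library left out at a time, the log2 fold change of CEACAM5 ran from -8.63 to -6.74, that of CEACAM6 from -6.38 to -5.74, that of CEACAM1 from -1.96 to -1.88 and that of CEACAM19 from 0.37 to 1.49. The extremes of CEACAM5, CEACAM6 and CEACAM19 came from leaving out a control library. Under the other alternatives the values moved by less than the spread between replicates. CEACAM5 gave no value with at least 10 counts in every sample. CEACAM7 was not tested in the fit reported.

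At an adjusted p under 0.05, the count of 0 lower and 0 higher genes became 1 lower gene with total library size, 361 and 167 with all counted genes kept, 273 and 133 by DESeq2's Wald statistic, 262 and 167 by edgeR's exact test, and from 28 to 2612 lower and 12 to 2550 higher with one library left out. Over the genes of the lists, 0 and 0 became 8 and 4 without a filter, 7 and 3 with DESeq2, 5 and 3 with the exact test, and 1 to 34 lower and 0 to 19 higher with one library left out. By the criterion of p and fold, 671 lower and 445 higher genes turned into 1173 and 688 with all counted genes kept, and from 300 to 2134 and 159 to 2495 with one library left out. The list genes, 9 lower and 7 higher, became 16 lower without a filter, 5 lower with a minimum of 10 counts per sample, and 6 to 28 lower and 4 to 22 higher with one library left out. The causes were not tested. A fit without 1 USP12 or control library assumes that the lone library varies like the other group.

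The groups share replicate numbers 1 and 2. Same-numbered libraries deviated together only weakly (correlation across genes 0.152, with 2 pairs), and nothing in the sources pairs them. With the replicate number as a block, edgeR called 251 lower and 153 higher genes after adjustment, 7 and 4 of them from the lists, and each gene then took its spread from the trend alone. The log2 fold changes with the replicate block were -6.08 for CEACAM6, -7.72 for CEACAM5, -1.93 for CEACAM1 and 0.90 for CEACAM19. The depth limits CEACAM5 in USP12 cells and CEACAM7 in all but 1 library.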

Other observations

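Further GPI-anchored surface proteins met the same criterion of p and fold (edgeR's quasi-likelihood test), and they are named here after their values were seen. PLAUR, the urokinase receptor, had 2258 and 955 counts in control cells against 406 and 325 with USP12, FOLR1, a folate receptor, had 153 and 33 against 7 and 6, and LY6E had 6930 and 3048 against 845 and 1758. VNN1, a pantetheinase, had 27 and 14 counts against 2 and 0. FOLR1 and VNN1 passed the filter through their control libraries. The higher genes besides CD24 were GFRA1, a receptor subunit for GDNF, with 74 and 60 counts against 286 and 369, CPM, which encodes carboxypeptidase M, with 49 and 31 against 229 and 112, LYPD1 with 104 and 23 against 329 and 306, and RTN4RL1 with 10 and 6 against 34 and 45. LYPD1, GFRA1 and FOLR1 met the criterion with any single library left out, PLAUR and CPM in 3 of the 4 such fits, and LY6E, VNN1 and RTN4RL1 in 2. LY6E and VNN1 no longer met it without control replicate 1.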
